A study of Mus musculus with 2 samples.

Results

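The cell cycle module comprised 36 of the 32285 genes in the RNA part of the deposited matrices. Its members were listed by symbol, with earlier results of these data known, and each matched exactly 1 gene. They formed 3 groups: 15 genes of DNA synthesis (S members), 17 genes of G2 and mitosis (G2/M members), and 4 genes (Stmn1, Hmgb2, Tubb5 and H2afz) that dividing cells express strongly but resting cells also express. The question was which cell types in the joint were dividing, and whether the macrophages present 7 days after depletion were.

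The study profiled myeloid cells of the mouse ankle joint synovium, the lining and connective layer of the joint, with CITE-seq, which reads 3′ ends of polyA RNA and antibody tags from the same cell. The mice were bone marrow chimeras (BMC): CD45.1 B6 marrow was placed into CD45.2 B6 hosts whose ankles were shielded from irradiation, so in both groups the joint kept CD45.2 host cells beside CD45.1 donor cells. The steady-state library came from chimeras with no treatment, and the day 7 library from chimeras given 200 µL of clodronate liposomes (Clo-lip), which kill phagocytes that take them up, retro-orbitally 7 days earlier. Both were sorted for CD45+ CD11b+ cells without the surface markers CD177, Ly6C, MHCII, CD64, SiglecF and Ly6G. The age and number of the mice, and whether animals were pooled, are not given in the sources used here.

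Each group was 1 library. No comparison between the groups therefore has a replicate check, and no p-value is given. The intervals below are exact 95% intervals that cover counting error only: they leave out the spread between animals, and for summed levels also the spread between cells. The steady-state library held 1630 cells and 17060676 RNA UMIs (counted molecules) after filtering, with a median of 9558.5 per cell. The day 7 library held 1200 cells and 10824984 UMIs, with a median of 8309. The libraries shared 0 cell barcodes.

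A cell copies its DNA in S phase and divides in mitosis, and the genes of the 2 phases are switched on in turn. Before S phase, Cdc6 loads the Mcm2 to Mcm7 helicase ring onto DNA, and Gins2 belongs to the complex that activates it. Pcna is the sliding clamp of the polymerases, Tyms, Rrm1, Rrm2 and Dut keep the nucleotide supply, Slbp serves histone mRNA, and Uhrf1 guides DNA methylation onto the new strand. In G2 and mitosis, cyclins Ccna2, Ccnb1 and Ccnb2 activate the kinase Cdk1, the kinases Aurka, Aurkb and Plk1 drive spindle and chromosome movements, and Bub1, Cenpe and Cenpf act at kinetochores. Cdc20 and Ube2c then mark cyclins for destruction. Blood monocytes and neutrophils come from precursors that divide in the bone marrow, whereas mature neutrophils and Ly6C-low monocytes are regarded as non-dividing, and tissue macrophages are known to renew themselves slowly in place.

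Cells were placed in classes by the summed UMIs of marker genes per 10000 RNA UMIs of the cell: granule-gene cells, a class meant for granulocyte precursors, by early granule genes (Mpo, Elane, Prtn3, Ctsg, Ms4a3), late granule genes (such as Camp, Ngp and Ltf) or both; macrophages by C1qa, C1qb and C1qc; class II cells by 4 MHC class II pathway genes; and monocytes by a classical list (Ly6c2, Ccr2, Vcan), a Ly6C-low list (such as Ace, Treml4 and Cd300e) or both. No member gene was used. These classes are ranges of marker level rather than sharp types: 29 of 907 steady-state and 8 of 160 day 7 macrophages lay within 1.5 times the minimum, as did 26 of 141 and 40 of 430 classical monocytes and 33 of 271 and 32 of 118 class II cells. In the macrophage class, the medians of the class II and classical lists were 1.27 and 1.24 UMIs per 10000 at steady state, and 0 and 1.29 at day 7. The macrophage name fitted 10 further macrophage genes (such as Vsig4, Folr2 and Mrc1), which summed to 10424 and 10193 CPM (UMIs of the gene or list per 1000000 RNA UMIs) in the macrophage class and to 251 and 218 CPM in classical monocytes. The granulocyte name fitted the granule-gene cells with late granule genes, but not those with early granule genes alone. At day 7 the latter had a median of 32.3 classical monocyte UMIs per 10000, against 16 of the early granule list, and 31.3 in classical monocytes. Ccr2, a chemokine receptor of monocytes, was at 457 CPM in them and 17.6 CPM in cells with both granule lists, and Irf8, a factor of monocyte precursors, at 191 and 0 CPM. They are therefore called by their marker rule, and results are also given without them. The labelled sort excluded Ly6C, MHCII, CD64 and CD177 protein, yet each library held cells with the RNA of Ly6c2, class II or granule genes, so every share below is a share of what passed this sort.

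To compare cells of different depth, each cell was thinned at random to 3000 UMIs. This left out 197 shallower cells at steady state and 223 at day 7, of them 90 of 907 and 37 of 160 macrophages. A cell was called G2/M-positive with at least 3 different G2/M members and S-positive with at least 4 different S members.

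At day 7, G2/M-positive cells were concentrated in granule-gene cells, and the C1q macrophages held none that was called. Of 122 granule-gene cells, 74 were G2/M-positive (60.7%, 51.4 to 69.4) and 74 were S-positive. This draw lay high: over 20 further thinning draws, 61 to 71 granule-gene cells were G2/M-positive (median 67.5 cells, 55.3%) and 65 to 76 were S-positive. Without the cells that had early granule genes alone, 55 of 97 were G2/M-positive (56.7%, 46.3 to 66.7) and 57 were S-positive. Monocytes came next, with 14 of 106 G2/M-positive cells among those past both monocyte lists (13.2%, 7.41 to 21.2) and 45 of 368 among classical monocytes (12.2%, 9.06 to 16). No G2/M-positive cell was found in 123 macrophages, 106 class II cells or 107 Ly6C-low monocytes. Counting 3 cells as the limit that a count of 0 allows, the shares could be up to 2.44%, 2.83% and 2.80%, and the exact intervals drawn in the plot of shares end at 2.95%, 3.42% and 3.39%.

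At steady state the order was similar where cells were numerous enough. Classical monocytes had 12 of 130 G2/M-positive cells (9.23%, 4.86 to 15.6), class II cells 12 of 246 (4.88%, 2.55 to 8.37) and macrophages 6 of 817 (0.734%, 0.270 to 1.59). The granulocyte gate held 8 cells at steady state, of which 5 were deep enough and 3 were G2/M-positive. Ly6C-low monocytes, taken with stromal cells as the background classes, had 1 of 75 positive cells (1.33%, 0.0338 to 7.21) at a median of 5349 UMIs per cell, against 10055 for macrophages; stromal cells had 0 of 55. The 1 positive Ly6C-low cell had 6 G2/M and 4 S members after thinning. With an interval that reaches 7.21% in this class, the macrophage share cannot be placed above or below the background classes at these cell numbers.

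**Figure D1:**
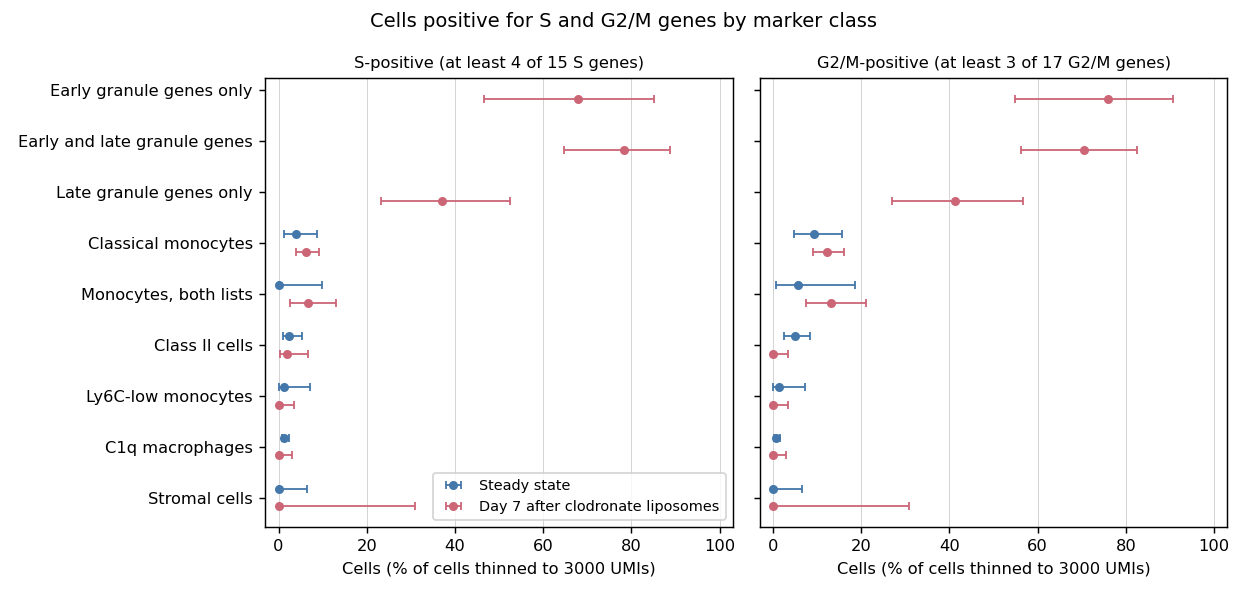
Share of S-positive (left) and G2/M-positive (right) cells by marker class, as a percent of cells thinned to 3000 UMIs, in the steady-state (blue) and day 7 (red) library; bars are exact 95% binomial intervals, and classes with fewer than 10 cells are left out. Cells with early granule genes alone reach 76.0% G2/M-positive cells, classical monocytes 12.2%, and day 7 macrophages 0.

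Read over all cells, the G2/M-positive share was 2.79% (2.00 to 3.78; 40 of 1433) at steady state and 13.8% (11.7 to 16.1; 135 of 977) at day 7. Class sizes moved with it: granule-gene cells made up 0.491% of the cells at steady state and 14.2% at day 7, and without them the shares were 2.59% and 7.13%. At day 7 granule-gene cells held 51.4% of all G2/M UMIs and 55.9% of all S UMIs, and classical monocytes a further 34.8% and 25.8%. Cells with early granule genes alone, which also had monocyte RNA, held 15.6% and 17.8%. Cells with both granule lists held 22.7% and 28.4%, and cells with late granule genes alone 13.2% and 9.68%. All monocyte classes together held 44.0% and 35.7%. Macrophages, 13.3% of the cells, held 0.622% and 3.21%. In a whole-sample sum, more granule-gene cells and more cell cycle RNA per cell cannot be told apart, so the values below are given within classes.

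Among day 7 granule-gene cells, the positive share was lowest in those with late granule genes alone. Cells with early granule genes alone had 24 of 25 cells positive for S or G2/M genes, cells with early and late granule genes 49 of 51, and cells with late granule genes alone 22 of 46 (47.8%, 32.9 to 63.1). G2/M-positive shares were 76.0% (54.9 to 90.6), 70.6% (56.2 to 82.5) and 41.3% (27.0 to 56.8) over the same classes. S-positive shares were 68.0% (46.5 to 85.1), 78.4% (64.7 to 88.7) and 37.0% (23.2 to 52.5), highest in the middle class. Over the 20 further draws the median G2/M-positive shares were 68.0%, 62.7% and 37.0%. The 3 classes are no single series, given the monocyte RNA of the early class, and they differed in depth, with medians of 17450, 18846 and 8050 UMIs per cell before thinning, and 14 of the 35 early cells lay within 1.5 times the gate minimum.

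In levels, S and G2/M members differed between cells with both granule lists and cells with late granule genes alone. Summed S members were at 2319 CPM and 1429 CPM in these classes, and all 15 S members were higher in the former, 6 of them by at least 2-fold, with a median log2 ratio of 0.94. Summed G2/M members were at 2313 and 2422 CPM, with 10 of 17 members higher, 1 by at least 2-fold, and a median log2 ratio of 0.04. How often other genes differed between these classes is not given, so the member counts are not set against a share over all genes. Cells with early granule genes alone were at 2900 CPM (2762 to 3043) for S members and 3159 CPM for G2/M members. In the late cells the G2/M UMIs were held by few cells: 31 of 67 cells (counted before thinning) carried 99.0% of them, at 3484 CPM, and the other 36 were at 81.4 CPM.

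The helicase ring genes were spread. In cells with early, both and late granule genes, Mcm5 was at 201, 136 and 41.3 CPM and Mcm6 at 175, 126 and 49.3 CPM. Mcm7 was at 172, 155 and 95.3 CPM and the loader gene Cdc6 at 38.5, 39.6 and 20.7 CPM. Tyms, which makes thymidylate, went from 161 to 107 and 68.3 CPM. Rrm2, the regulated subunit of the enzyme that makes deoxynucleotides, was nearly level instead, at 268, 283 and 242 CPM. Of the G2/M members, Top2a, which untangles sister chromatids, was at 511, 430 and 418 CPM, Cenpf, of the kinetochore, was at 107, 112 and 148 CPM, and the cyclin gene Ccnb1 was at 59.5, 46.6 and 22.2 CPM.

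**Figure D2:**
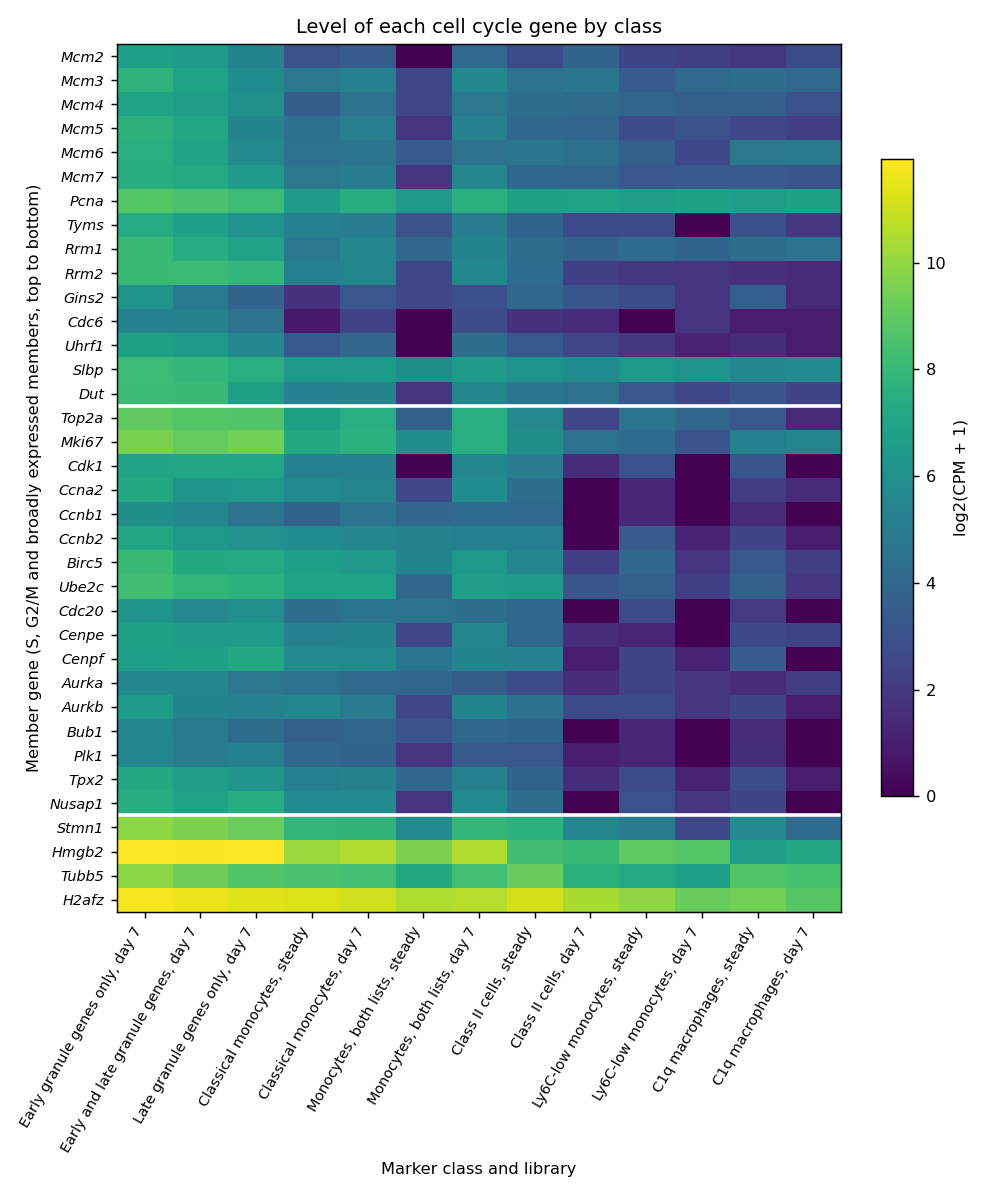
Level of each of the 36 members as log2(CPM + 1) in 8 marker classes; granule-gene cells are shown for day 7, where they were numerous, and the other classes for both libraries. White lines separate S, G2/M and broadly expressed members. The 3 granule-gene columns are high throughout, and the G2/M block is low in day 7 class II cells, Ly6C-low monocytes and macrophages, where Mki67 stands out at 43.5 CPM in macrophages.

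Against macrophages of the same library, 35 of the 36 members were at least 2-fold higher in day 7 granule-gene cells, where 12.7% of the 6950 genes compared were higher and 36.2% lower. The members' median log2 ratio was 4.62, and that of all genes compared was -0.57. Without the cells that had early granule genes alone, 35 of 36 were again higher, where 11.9% of 6881 genes were higher and 43.4% lower. Top2a was at 2 UMIs in macrophages (1.78 CPM) and 447 CPM in granule-gene cells, a log2 ratio of 7.98 (6.12 to 11). Tubb5, a tubulin that macrophages also express, was the 1 member under 2-fold (log2 ratio 0.90, 0.74 to 1.06).

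The genes around the module in the same comparison, from lists of other cell cycle genes, are given by role. Of 48 further mitotic genes 45 could be compared, and 40 were higher and 1 lower. Of 30 further replication genes 25 were compared and 24 were higher. Of the brakes on the cycle, 4 of 12 were higher and 3 lower. Of all 6950 genes compared, 12.7% were higher and 36.2% lower, so brakes were not lower more often than other genes. Cdkn1a, which encodes the cyclin-dependent kinase inhibitor p21, was at 190 CPM in granule-gene cells and 804 CPM in macrophages, a log2 ratio of -2.08 (-2.24 to -1.91). Ccnd1, a cyclin of the G1 phase, had 0 UMIs in granule-gene cells and 34 in macrophages.

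S and G2/M genes are known to be controlled by different promoter elements, E2F sites and the cell cycle homology region with CCAAT boxes, so the promoters with the most matches are shown. The 250 upstream bases of the promoter entries were taken from RefSeq (GRCm38.p6) for 29 of the 36 members. The table lists no entry for Mcm4, Gins2, Ccna2, Aurkb, Tpx2, Stmn1 and H2afz. Among 22862 genes with 1 entry, 74.7% of these windows ended 1 base before the annotated gene start. Searched on both strands were the cell cycle homology region TTTGAA, the CCAAT box, and the E2F letters TTTCGCGC, TTTGGCGC and TTTCCCGC. In the 3 G2/M promoters, capitals mark TTTGAA and CCAAT matches or their reverse complements; 2 CCAAT matches on opposite strands overlap in Ube2c.
Top2a: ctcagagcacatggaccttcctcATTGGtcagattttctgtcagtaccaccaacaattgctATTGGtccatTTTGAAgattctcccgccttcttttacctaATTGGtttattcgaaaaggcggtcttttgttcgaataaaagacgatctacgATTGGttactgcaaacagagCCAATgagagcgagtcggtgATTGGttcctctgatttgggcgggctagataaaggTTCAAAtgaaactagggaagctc
Ube2c: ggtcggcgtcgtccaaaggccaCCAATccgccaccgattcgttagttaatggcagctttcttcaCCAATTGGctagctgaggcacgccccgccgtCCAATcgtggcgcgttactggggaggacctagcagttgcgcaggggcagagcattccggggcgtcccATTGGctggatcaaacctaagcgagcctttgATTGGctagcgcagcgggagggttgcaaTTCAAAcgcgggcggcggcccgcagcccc
Cdk1: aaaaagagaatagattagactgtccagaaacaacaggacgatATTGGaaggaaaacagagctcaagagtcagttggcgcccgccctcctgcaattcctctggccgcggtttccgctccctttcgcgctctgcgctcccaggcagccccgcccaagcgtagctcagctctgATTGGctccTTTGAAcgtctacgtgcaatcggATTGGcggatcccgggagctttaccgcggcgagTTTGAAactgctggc
These lie upstream of Top2a at chr11:99024190-99024439 (minus strand), of Ube2c at chr2:164769679-164769928 (plus strand) and of Cdk1 at chr10:69352913-69353162 (minus strand). In the 2 S promoters, capitals mark E2F matches, which overlap each other in places.
Mcm6: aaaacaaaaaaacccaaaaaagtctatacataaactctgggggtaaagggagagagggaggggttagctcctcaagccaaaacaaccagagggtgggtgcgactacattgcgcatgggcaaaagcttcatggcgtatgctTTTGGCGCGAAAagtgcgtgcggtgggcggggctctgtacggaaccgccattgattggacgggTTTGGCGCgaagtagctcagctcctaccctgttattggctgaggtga
Mcm5: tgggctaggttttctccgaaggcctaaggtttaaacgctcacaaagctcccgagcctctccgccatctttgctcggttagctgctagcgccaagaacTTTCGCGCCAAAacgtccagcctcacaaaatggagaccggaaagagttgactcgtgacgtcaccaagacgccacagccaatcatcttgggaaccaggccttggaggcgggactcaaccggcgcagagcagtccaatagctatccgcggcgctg
They lie at chr1:128359706-128359955 (minus strand) and chr8:75109259-75109508 (plus strand).

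By these letters, 6 of 14 G2/M members with an entry held both TTTGAA and CCAAT (42.9%), against 6.45% of the 27025 genes in the table and 1 of 13 S members. An E2F match was found for 5 of 13 S members (38.5%), 1 of 14 G2/M members and 1.78% of all genes. CCAAT by itself did not set the groups apart: it was in 10 of 13 S members (76.9%) and 12 of 14 G2/M members (85.7%), against 37.5% of all genes. A match describes these letters in this window and no binding was measured.

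Surface CD71, the transferrin receptor that growing cells carry for iron uptake, was measured apart from the RNA. In day 7 granule-gene cells the median CD71 antibody count was 11 in the 74 G2/M-positive cells and 11 in the 21 S-only cells, but 1 in the 27 cells that were neither. The G2/M-positive cells also had more RNA (a median of 20721 UMIs, against 8050), and the part of cell size or depth in the antibody count was not tested. By class at day 7, CD71 was at a median of 4 in early, 15 in early and late and 2 in late cells. It was at 2 in macrophages and 1 in classical monocytes, so across classes it did not follow the G2/M-positive share.

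Classical monocytes held dividing cells in both libraries, and the day 7 difference depended on where the class was drawn. Summed G2/M members were at 928 CPM (877 to 981) at steady state and 1017 CPM (986 to 1049) at day 7, a log2 ratio of 0.13 (0.04 to 0.23). With gate minimums at 0.5 times and 2 times it was 0.72 and 0.44, and with equal weight per cell 0.41. Summed S members were at 435 and 604 CPM, a log2 ratio of 0.47 (0.34 to 0.61). The G2/M-positive shares, 9.23% and 12.2%, had overlapping intervals, as did the S-positive shares, 3.85% (1.26 to 8.75) and 6.25% (4 to 9.23).

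Of the 36 members 30 could be compared in classical monocytes (at least 20 CPM in either library). Mcm4 was called higher (21.0 against 10.4 CPM, log2 ratio 1.01, 0.19 to 1.95) and none lower, where 2.93% of 5776 genes were higher and 1.45% lower; with ratios centred on the median gene, which lay at 0.12, Mcm4 was also under 2-fold. The count called higher was 5 with either change of gates, 5 with equal weight per cell and 6 at 1.5-fold. Other S members leaned upward: Pcna was at 94.9 and 172 CPM (0.86, 0.58 to 1.14) and Rrm1 at 26.7 and 44.9 CPM (0.75, 0.23 to 1.31). The G2/M members were split. Top2a was at 110 and 184 CPM (0.75, 0.49 to 1.01), whereas Aurkb, the kinase that corrects chromosome attachment, had 61 and 120 UMIs (log2 ratio of CPM -0.58, -1.04 to -0.11) and Birc5, its partner, at 106 and 84.1 CPM (-0.34, -0.62 to -0.04).

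Outside the members, 33 of 48 further mitotic genes were compared in classical monocytes, with 1 higher, 0 lower and a median log2 ratio of 0.10. Kif15, a spindle motor, was at 14.8 and 33.6 CPM (1.18, 0.49 to 1.94), and Lig1, the ligase that joins newly made DNA, at 16.3 and 33.3 CPM (1.03, 0.37 to 1.75). Among the brakes, Cdkn2d, an inhibitor of G1 kinases, went from 231 to 115 CPM (-1.01, -1.22 to -0.80).

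The monocytes past both the classical and the Ly6C-low minimum were few at steady state. Their G2/M sum was 280 CPM in 40 steady-state cells and 970 CPM in 120 day 7 cells, a log2 ratio of 1.79 (1.51 to 2.08). At steady state 2 of the 40 cells carried 92.2% of those UMIs. The G2/M-positive shares were 5.56% (0.680 to 18.7; 2 of 36) and 13.2% (7.41 to 21.2; 14 of 106).

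The dividing monocytes differed from the others of their class in genes outside the cell cycle. At day 7 Ly6c2 was at 2178 CPM in the 45 G2/M-positive cells and 1515 CPM in the 318 cells that were neither S- nor G2/M-positive, and surface Ly6C had a median of 75 and 53.5 counts. The G2/M-positive cells also had more RNA per cell, and the part of cell size or depth in the antibody count was not tested. Csf1r, the receptor for the macrophage growth factor, was at 145 and 436 CPM, and Cx3cr1, a receptor of later monocytes, at 66.5 and 223 CPM. At steady state the same genes were at 1377 and 1130 CPM (Ly6c2), 124 and 411 CPM (Csf1r) and 59.7 and 181 CPM (Cx3cr1). Of the 45 dividing cells at day 7, 42 were donor-class (CD45.1), as were 399 of the 430 cells of the class.

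Early granule RNA was detected more often in these dividing monocytes, which at day 7 also had more RNA per cell. A UMI of the early granule list was found in 88.9% of the G2/M-positive cells and 34.3% of the others at day 7, and in 7 of 12 and 27 of 117 at steady state, before thinning, at median depths of 14527 and 9367 UMIs at day 7. The defining marker Mpo was low in both sets of day 7 cells, at 5.4 and 1.3 CPM, and Ms4a3 was at 1.4 and 0, against 1561 and 541 CPM in G2/M-positive granule-gene cells. Both genes belong to the early granule list that set the classes, so this gap follows from the class rule. The parts of depth and of granule RNA from other cells in these counts were not tested. Levels of the other early granule genes, Elane, Prtn3 and Ctsg, are not given for these sets.

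Class II cells held dividing cells at steady state and no G2/M-positive cell at day 7, with exact intervals that overlapped (2.55 to 8.37% and 0 to 3.42%). S-positive cells were found in both, 6 of 246 (2.44%) and 2 of 106 (1.89%). Summed G2/M members were at 489 CPM (465 to 514) and 53.1 CPM (40.3 to 68.6), a log2 ratio of -3.20 (-3.61 to -2.82), while summed S members were at 373 and 332 CPM (-0.17, -0.34 to 0.00). Ly6C-low monocytes, the background class, were at 39.5 CPM for G2/M members at day 7. The steady-state level rested on few cells: 16 of 271 (counted before thinning) carried 95% of the G2/M UMIs. The other 255 were at 27.7 CPM, and the day 7 cells outside the 3 positive before thinning were at 33.7 CPM.

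In class II cells 17 members were compared, of which 10 were lower and 0 higher, where 4.53% of 5942 genes were lower and 4.39% higher. These 10 were the 8 G2/M members compared, with a median log2 ratio of -3.52 against 0.10 for all genes, and Stmn1 and Tubb5. All 17 G2/M members summed to 53.1 CPM at day 7, so they reached the 20 CPM minimum mainly through steady state. The direction and median of the 8 therefore follow in part from this minimum. With no minimum beyond 1 UMI, 21 of 36 members were lower and 1 was higher. Ube2c, which passes ubiquitin to the mitotic cyclins, had 283 UMIs (90.8 CPM) and then 9 (8.2 CPM), a log2 ratio of -3.46 (-4.61 to -2.52). Cdk1 went from 98 to 2 UMIs and Ccnb2 from 108 to 0, so Ccnb2 was at least 12.6-fold lower against a floor of 3 counts. None of the 5 S members compared was past 2-fold. Of the further mitotic genes, kept by the same minimum, 14 of 21 were lower. Prc1, which bundles the midzone of the spindle, went from 89 UMIs to 1. Against this, Cdkn1a was at 425 and 586 CPM (0.46, 0.33 to 0.60).

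The 12 steady-state class II cells called G2/M-positive had less Ly6c2 and Csf1r RNA than the others. Ly6c2 was at 7.1 CPM in them and 172 CPM in the 232 cells that were neither, and Csf1r at 117 and 352 CPM. Ccr2, also of the classical monocyte list, was at 760 CPM over the whole steady-state class and is not given for these sets. Mgl2, a lectin of some dendritic cells and macrophages, was at 417 and 333 CPM, and Flt3, a dendritic cell growth factor receptor, at 31.8 and 19.3 CPM. Xcr1 and Clec9a, which define another dendritic type, had 0 UMIs in these 12 cells. They were 9 donor and 3 host cells, where the 232 others included 9 host cells. The class itself differed between the libraries, with a median of 194 class II UMIs per 10000 at steady state and 106 at day 7.

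**Figure D3:**
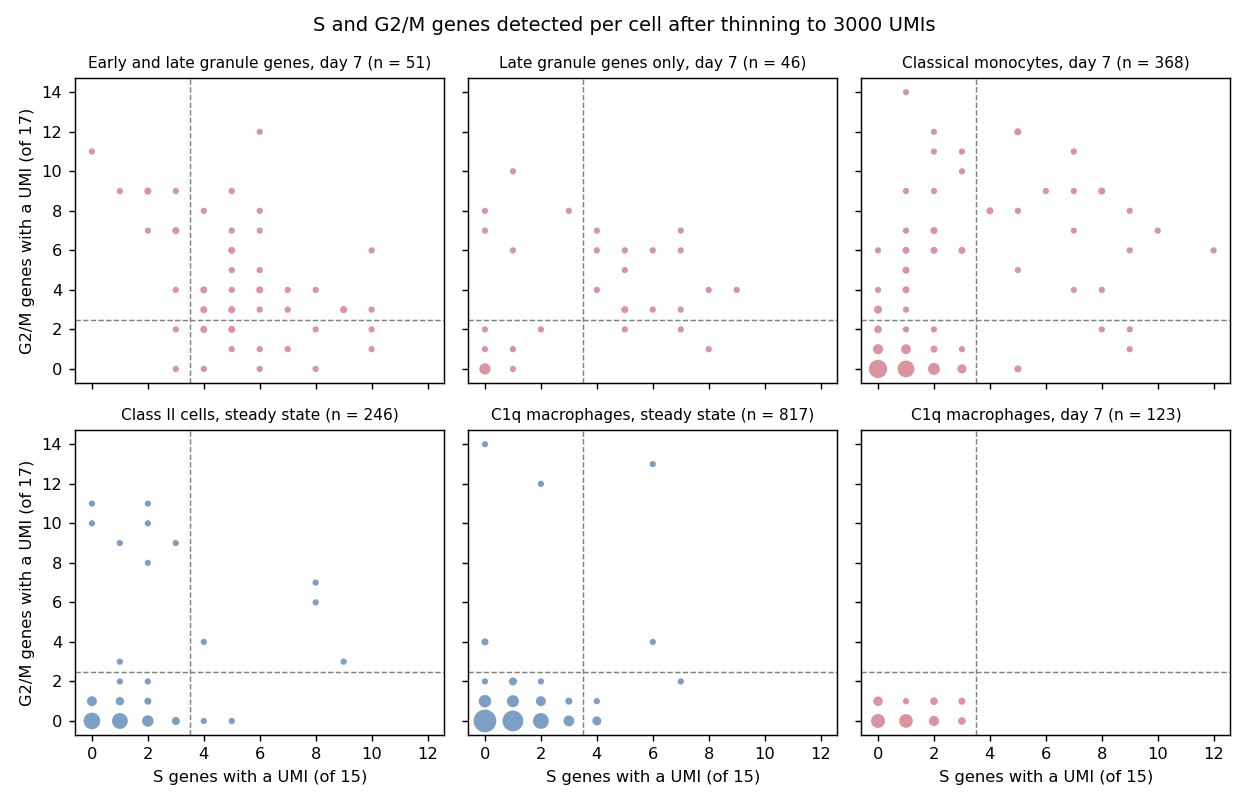
Number of S members (x axis, of 15) and G2/M members (y axis, of 17) with a UMI per cell after thinning to 3000 UMIs, in 6 class and library pairs; dot area grows with the number of cells, and dashed lines mark the minimums of 4 and 3. The 6 positive steady-state macrophages stand above the line with 4 to 14 G2/M members, whereas no day 7 macrophage has more than 1.

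Macrophages were the class the question turned on, and at steady state a small number of them carried many G2/M members. The 6 G2/M-positive cells had 4 to 14 G2/M members after thinning, and 8 to 17 before. Each was a macrophage by RNA: C1q genes were at 44.2 to 129 UMIs per 10000, Vsig4, Folr2 and Lyve1 each had a UMI in all 6, and 8 to 10 of the 10 further macrophage genes were detected per cell. None of the 6 had a UMI of the early granule genes or passed the classical monocyte minimum, and 1 passed the class II minimum. They had 10461 to 39135 UMIs (median 15721), and doublet calls (4 macrophages at steady state, 1 at day 7) had been removed. By surface CD45, 4 were host cells, 0 donor and 2 unassigned, so 4 of 657 host and 0 of 117 donor macrophages were positive.

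At day 7 no macrophage reached the call, and no thinned cell had more than 1 G2/M member. The count was too low to show a fall: the exact interval for 0 of 123 ends at 2.95%, above the steady-state share of 0.734%. Before thinning, 10 of 907 (1.10%) and 1 of 160 (0.625%) macrophages had at least 3 G2/M members, at medians of 10055 and 6788.5 UMIs per cell. In 20 repeated thinning draws the number of positive cells ranged from 4 to 8 at steady state and from 0 to 1 at day 7. Host-class macrophages had 0 of 86 positive cells at day 7 and donor-class macrophages 0 of 9.

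The S call was less certain in macrophages. It found 11 of 817 cells at steady state (1.35%, 0.674 to 2.40) and 0 of 123 at day 7, but over the 20 draws the steady-state number ranged from 1 to 8 with a median of 5.5, so the reported draw lay above all 20. Before thinning, 110 of 907 (12.1%) and 10 of 160 (6.25%) cells had at least 4 S members. Summed S members were at 267 CPM (257 to 277) and 265 CPM (235 to 296), a log2 ratio of -0.01 (-0.19 to 0.16), and Ly6C-low monocytes had 282 and 261 CPM. Macrophages were therefore at the level of the background class. Pcna, which also serves DNA repair, and Slbp made up 54.5% and 61.4% of the macrophage S UMIs, against 26.8% in day 7 granule-gene cells. Pcna was at 99.4 and 112 CPM and Slbp at 46.1 and 50.6 CPM in macrophages.

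The G2/M sum in macrophages was 121 CPM (114 to 128) at steady state and 63.9 CPM (50 to 80.5) at day 7, a log2 ratio of -0.92 (-1.29 to -0.58). Much of the steady-state sum came from the few dividing cells: the 10 cells positive before thinning carried 70.3% of the UMIs. The remaining steady-state macrophages were at 36.7 CPM, and the day 7 macrophages outside the 1 positive cell at 57.4 CPM. These splits use the same genes as the sums and are given as a description, at medians of 10055 and 6788.5 UMIs per cell. Host-class macrophages were at 129 (121 to 137) and 72.1 (54.5 to 93.6) CPM. Donor-class macrophages, 134 and 19 cells, were at 67.6 (54.6 to 82.8) and 56.1 (22.6 to 116) CPM, with overlapping intervals.

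What remained at day 7 was mainly Mki67, the gene of the Ki-67 antigen that coats mitotic chromosomes. It had 49 of the 72 G2/M UMIs (68.1%), against 359 of 1180 (30.4%) at steady state, 19.5% in day 7 classical monocytes and 24.7% in day 7 granule-gene cells. Mki67 was at 36.9 CPM (33.1 to 40.9) and 43.5 CPM (32.2 to 57.5) in macrophages. A UMI was found in 12.7% and 11.9% of them before thinning, and in 47 of 817 and 8 of 123 after it. Ly6C-low monocytes, at a median of 6248 UMIs per cell, were at 7.4 CPM at day 7, and 2.26% of their cells had an Mki67 UMI.

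These Mki67 UMIs came without the rest of the module. Of 115 steady-state macrophages with an Mki67 UMI, 93 had no UMI of any other G2/M member, as did 15 of 19 at day 7. In day 7 granule-gene cells that was so for 2 of 118 cells, and in day 7 classical monocytes for 9 of 77. Without Mki67, the other 16 members summed to 84.3 CPM at steady state and 20.4 CPM at day 7 (log2 ratio -2.05, -2.71 to -1.45), a setting added after the values were seen. At steady state 699 of these 821 UMIs (85.1%) came from the same 10 cells. Top2a had 89 and 2 UMIs, and 7 members (Cdk1, Ccnb1, Cdc20, Cenpf, Bub1, Plk1 and Nusap1) had 0 at day 7, where 3 counts correspond to 2.66 CPM.

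**Figure D4:**
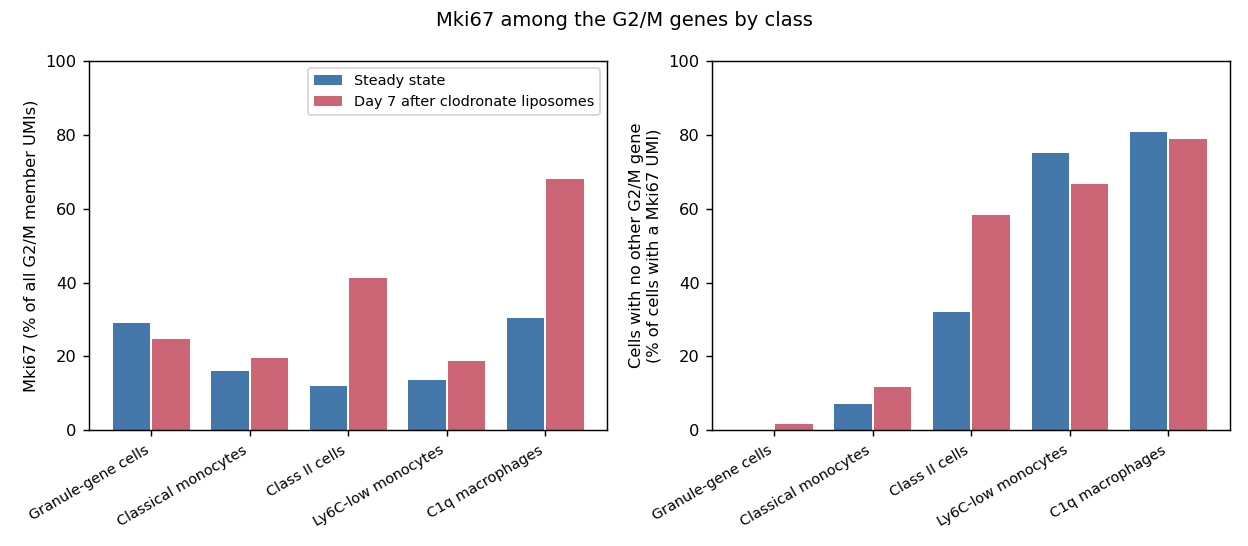
Left, Mki67 as a percent of all G2/M member UMIs; right, cells with no other G2/M member as a percent of cells with an Mki67 UMI, by class in the steady-state (blue) and day 7 (red) library, all before thinning and with 1 library per bar. Macrophages are highest on both: Mki67 is 68.1% of their G2/M UMIs at day 7, and 15 of their 19 Mki67 cells have no other member.

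Member by member, 9 of the 36 could be compared in macrophages, 27 being under 20 CPM in both libraries. Stmn1, which destabilises microtubules and is high in dividing cells, was lower (47.5 CPM, then 16.9 CPM; log2 ratio -1.49, -2.24 to -0.83), and no member was higher, where 1.16% of 6455 genes were higher and 0.945% lower. The 4 S members compared had log2 ratios from 0.13 to 0.21, near the median of all genes, 0.12. The chromatin proteins parted: Hmgb2 was at 100 and 143 CPM (0.51, 0.26 to 0.75) and the histone gene H2afz at 675 and 462 CPM (-0.55, -0.68 to -0.42). Hmgb2, Tubb5 and H2afz belong to families with close copies, and how reads shared between copies were counted is not given in the sources used here.

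Genes that hold the cycle back were present in macrophages in both libraries. Cdkn1a was at 487 CPM at steady state and 804 CPM at day 7 (log2 ratio 0.72, 0.62 to 0.82), under 2-fold. Btg1, an anti-proliferative gene, was at 278 and 352 CPM (0.34, 0.19 to 0.49). Cdkn2c, an inhibitor of the G1 kinases, went the other way with 385 UMIs (39.5 CPM) and then 14 (12.4 CPM; -1.67, -2.55 to -0.90), as did Gmnn, which blocks repeated replication, at 31.1 and 13.3 CPM (-1.22, -2.08 to -0.48). Cdk4, a kinase of G1, was at 59.2 and 34.6 CPM (-0.77, -1.28 to -0.31). Of 9 brakes compared 1 was lower and 0 higher, and of 9 further mitotic genes none was past 2-fold.

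**Figure D5:**
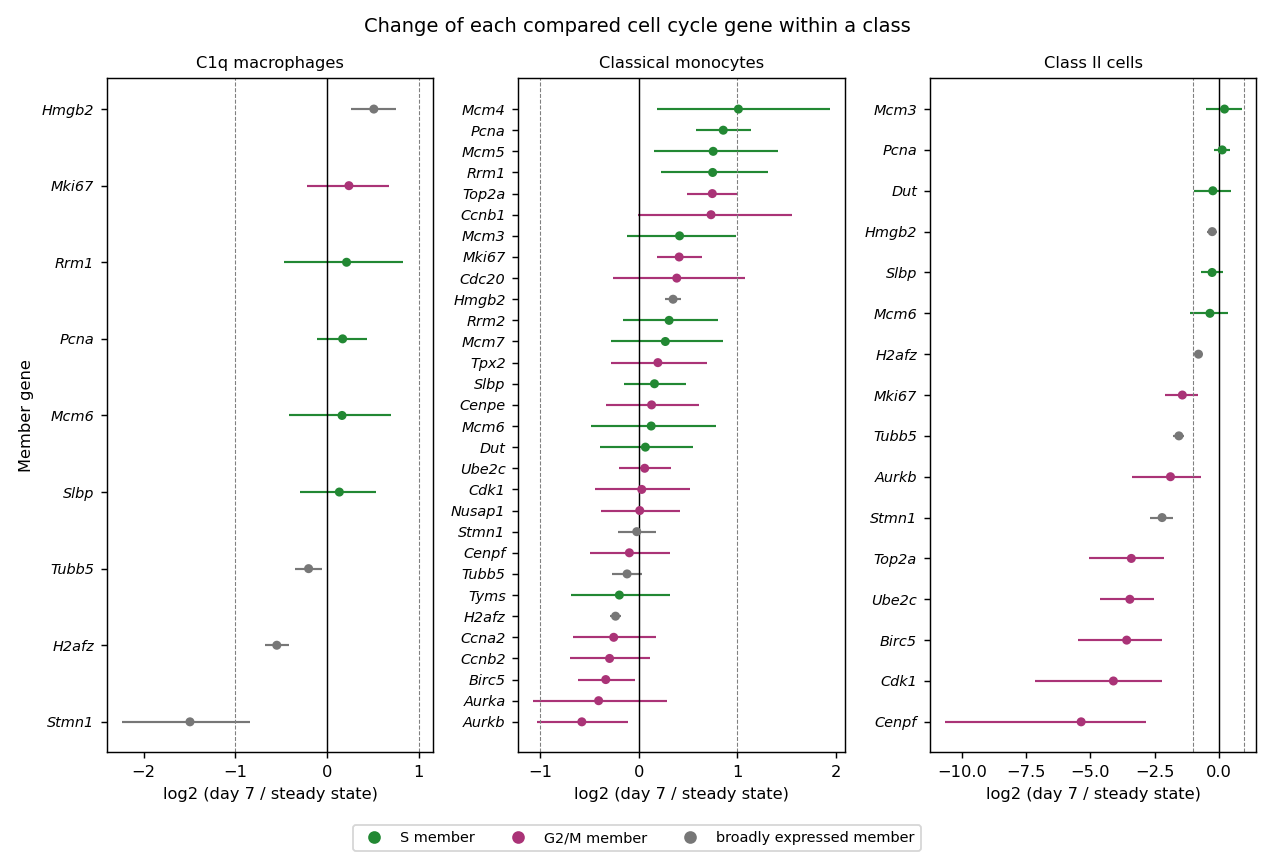
Log2 ratio of day 7 over steady state for each member compared (at least 20 CPM in either library) in macrophages, classical monocytes and class II cells; dots are ratios of summed CPM, lines exact 95% counting intervals, dashed lines 2-fold, and the x scales differ. Ccnb2 in class II cells, at 0 UMIs on day 7, is not drawn. The G2/M members of class II cells lie between -5.36 and -1.42, while those of classical monocytes lie within 2-fold.

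Ly6C-low monocytes had little of the module. Their G2/M sum was 123 CPM in 99 steady-state cells and 39.5 CPM in 133 day 7 cells (log2 ratio -1.64, -2.27 to -1.04), but 1 steady-state cell carried 85.2% of the UMIs and the others were at 19.3 CPM, so this difference rests on 1 cell. It turned positive with other gate minimums and with equal weight per cell. Of 7 members compared Stmn1 was lower (21 and 4 UMIs) and none higher, where 4.69% of 5695 genes were lower and 5.69% higher.

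Side by side in the same library, classical monocytes exceeded Ly6C-low monocytes in most members. At day 7, 26 of the 29 members compared were at least 2-fold higher and 0 lower, where 7.32% of 5886 genes were higher and 6.24% lower; Mki67 was at 198 and 7.4 CPM. At steady state 23 of 27 were higher and 0 lower, where 8.46% of 5807 genes were higher and 9.92% lower. Pcna and Slbp were within 2-fold at both times. Cdkn1b, the gene of the inhibitor p27, was on the other side, at 122 and 209 CPM at day 7.

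Over all cells, 25 of the 30 members compared were at least 2-fold higher at day 7 and 0 lower, where 6.51% of 6439 genes were higher and 10.6% lower. The members' median log2 ratio was 1.62, against -0.04 for all genes. Rrm2 was at 13.1 and 79.1 CPM (2.59, 2.38 to 2.81) and Top2a at 31.7 and 189 CPM (2.58, 2.44 to 2.72). Tubb5 was the member below 0, at -0.19 (-0.25 to -0.14). Within the 4 classes compared gene by gene, macrophages had 0 of 9 members higher, where 1.16% of all genes were. Classical monocytes had 1 of 30 (2.93% of all genes), Ly6C-low monocytes 0 of 7 (5.69%) and class II cells 0 of 17 (4.39%). Most members were under the CPM minimum in macrophages and Ly6C-low monocytes and were not compared there. The count in classical monocytes was 5 with either change of gates. Monocytes past both lists were not compared gene by gene, and their summed log2 ratios, 1.79 for G2/M and 1.72 for S members, were near those of all cells, 1.87 and 1.36. Without granule-gene cells the G2/M ratio of the rest was 1.25.

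Cells outside the gates added a few dividing cells. Of 69 ungated steady-state cells 4 were G2/M-positive, all of them host cells. They had Ctsk, an osteoclast protease also found in stromal cells, at 2522 CPM, and a median CD71 antibody count of 23.5. At day 7, 2 of 35 ungated cells were positive. Barcodes set aside for a mitochondrial share over 10% included 30 deep enough at steady state, of which 2 were G2/M-positive and neither was a macrophage.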

How the data were processed

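The deposited files hold raw UMI counts per gene, antibody and cell barcode for 2 CITE-seq libraries, for which the submitters' processing notes name Cell Ranger 6.1.2, Seurat 4.4.0 and mm10. Barcodes with under 500 UMIs or 200 genes, over 10% mitochondrial UMIs or a Scrublet doublet call (scanpy 1.11.5, within each library) were left out, which took 1912 and 1277 barcodes to 1630 and 1200 cells. Marker minimums per 10000 UMIs were 20 (stromal, macrophage, late granule), 10 (early granule, classical monocyte), 50 (class II) and 5 (Ly6C-low). Cells past minimums of incompatible lists were set aside (1 per library). Host and donor cells were split by a 2-component mixture on CD45.2 and CD45.1 antibody counts (posterior 0.95 and 0.05).

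Cells were thinned to 3000 UMIs without replacement from a fixed seed. Shares have exact Clopper-Pearson intervals at 95%; summed levels and ratios have exact Poisson intervals. Ratios were kept where 1 of the groups reached 20 CPM, called at 2-fold, with 3 counts as the floor for a 0. PCR duplicates are removed by UMIs, and intervals cover counting error only. The scripts were tested on simulated data.

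The members, gene lists and tests were chosen with earlier results of these data known. All 36 members could be named; further pathway genes were, per comparison, up to 4 in each direction, ranked by the end of the interval that lies closer to 0, and others named were chosen after their values were seen. Other thinning depths, gene minimums, gates, CPM minimums, folds, scalings and weights were tried, and 4 alternatives were added after seeing the data. Tools were numpy 2.4.6, scipy 1.17.1, pandas 2.3.3 and scikit-learn 1.9.0.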

Additional observations from a re-analysis of the deposited data

Results flagged for a closer look

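The summed G2/M level differed in direction between classes under the same contrast, day 7 over steady state, and the difference was not tested. Its log2 ratio was 0.13 in classical monocytes and 1.79 in monocytes past both lists, but -0.92 in macrophages, -1.64 in Ly6C-low monocytes and -3.20 in class II cells. The negative values rest on few steady-state cells: 10 of 907 macrophages, 1 of 99 Ly6C-low monocytes and 16 of 271 class II cells held 70.3%, 85.2% and 95% of the G2/M UMIs.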

How the results depend on the processing

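No paired analysis was possible because each group is 1 library, and for the same reason no library could be left out. Of the values recomputed, these moved by more than their interval, or counts by over 1.5 times; the cause was not tested. S-positive shares depended most on the setting. In steady-state macrophages the share was 1.35% as reported, 0.118% thinned to 2000 UMIs, 12.1% not thinned, 3.55% with 1 gene fewer, 0.367% with 2 more, and 0.673% as the median of 20 draws; at day 7 it was 6.25% not thinned and 4.07% with 1 gene fewer. In classical monocytes it was 10.6% and 13.5% not thinned, and 9.51% at day 7 with 1 gene fewer. In class II cells it was 12.2% and 10.2% not thinned, and 7.05% at steady state thinned to 5000 UMIs. In day 7 granule-gene cells it was 50% thinned to 2000, 73.9% to 5000, and 34.4% with 2 genes more, where the G2/M share was 42.2% thinned to 2000, 71.3% with 1 gene fewer and 36.1% with 2 more. The G2/M log2 ratio of Ly6C-low monocytes reversed to 0.73 with gate minimums at 0.5 times, 0.17 at 2 times, and 1.42 with equal weight per cell. In classical monocytes it was 0.72, 0.44 and 0.41 under these. With equal weight it was 2.15 over all cells, -0.55 in macrophages and -2.55 in class II cells, and the S ratio over all cells was 1.16. With gates at 2 times, the S ratio was 0.84 in classical monocytes and 0.24 in class II cells. Without Mki67, Pcna and Slbp, a setting added after seeing the data, the G2/M ratio was 1.81 over all cells, -2.05 in macrophages and -3.79 in class II cells, and the S ratio 1.68 and -0.25 over all cells and macrophages. Members called higher in classical monocytes were 5 with gates at 0.5 times, 5 at 2 times, 5 with equal weight, 3 with no CPM minimum, 6 at 1.5-fold and 0 with median scaling. In Ly6C-low monocytes, 0 were lower with gates at 0.5 times, at 2 times (1 higher) and with equal weight (5 higher), 5 lower at 10 CPM, 5 higher and 12 lower with no minimum, and 4 lower at 1.5-fold. Members lower in macrophages were 3 at 10 CPM and 12 with no minimum. In class II cells 6 were lower with equal weight, 19 lower and 1 higher at 10 CPM, and 21 lower and 1 higher with no minimum. With 0 of 123 day 7 macrophages G2/M-positive, the exact interval reaches 2.95%, so a difference from steady state could not be seen at this number of cells.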
